A study of Arabidopsis thaliana with 12 samples.

Results

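The 10 genes described here act in iron uptake and coumarin secretion by the Arabidopsis root. IRT1 (AT4G19690), IRT2 (AT4G19680), FRO2 (AT1G01580) and AHA2 (AT4G30190) are genes of iron uptake. F6'H1 (AT3G13610), S8H (AT3G12900), CYP82C4 (AT4G31940) and ABCG37 (AT3G53480) are genes of coumarin synthesis and secretion. MYB10 (AT3G12820) and MYB72 (AT1G56160) are transcription factor genes. The 10 genes were taken as a fixed list of gene identifiers, chosen with earlier results of these data known. Counts of these genes beside shares of all genes are therefore not support from an independently chosen list. All 10 were among the 33685 transcripts listed for every line. Transcript levels came from poly(A) RNA-seq of whole 10-day-old seedlings grown on vertical ½ MS plates without treatment, with 3 libraries of pooled seedlings for each of 4 lines. Atdoa10a/b RNAi 4-2 (the RNAi line) is a single line that carries a T-DNA insertion in AtDOA10A and an RNAi construct against AtDOA10B, the genes of the ER-localized DOA10-like E3 ligases. In amiNAA10 an artificial microRNA targets NAA10, the catalytic subunit of the N-terminal acetyltransferase NatA, and naa20 is a mutant of NAA20, the catalytic subunit of NatB. Col-0, the wild-type accession, was represented by the libraries sequenced for the RNAi comparison, so that the 3 comparisons share the same Col-0 libraries. The study's data statement relates amiNAA10 and naa20 to Col-0 libraries of another series, which were not used here, so both lines are set against other Col-0 libraries than in the study and any difference between the series cannot be told apart from that of the lines. The libraries of a line are called biological replicates, and p-values measure the spread between them.

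Arabidopsis takes up iron by reduction. AHA2 pumps protons that acidify the soil around the root, FRO2 reduces ferric chelates at the surface of the root epidermis, and IRT1 carries the ferrous iron into the cell. Coumarins are secreted phenolics that mobilize ferric iron: F6'H1 makes the precursor of scopoletin, S8H converts scopoletin to fraxetin, CYP82C4 converts fraxetin to sideretin, and ABCG37 exports them. The bHLH factor FIT activates most of these genes together with the Ib bHLH factors, and the IMA peptides promote the same iron deficiency response.

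Of the 9 genes whose mean reached 10 in either line (all but MYB72), 4 stood more than 2-fold below Col-0 in the libraries labelled naa20 (S8H, IRT2, FRO2 and CYP82C4) and none above, beside 3.2% of all genes below and 2.22% above. None of the 9 passed 2-fold in amiNAA10 or in the RNAi line, where 4.94% and 1.16% of all genes did. The 250 bases upstream of the annotated starts of these 4 genes are shown because the 4 genes were low together. They are from RefSeq (TAIR10.1), 5′ to 3′ on the strand of the gene, in lower case with each CANNTG, the E-box that bHLH factors bind, in capitals.
IRT2, chr4:10703098-10703347, + strand: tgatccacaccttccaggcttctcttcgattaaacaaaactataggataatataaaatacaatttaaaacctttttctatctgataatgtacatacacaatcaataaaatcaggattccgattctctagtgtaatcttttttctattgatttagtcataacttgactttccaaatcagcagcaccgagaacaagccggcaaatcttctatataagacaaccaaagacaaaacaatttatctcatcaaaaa
FRO2, chr1:208745-208994, + strand: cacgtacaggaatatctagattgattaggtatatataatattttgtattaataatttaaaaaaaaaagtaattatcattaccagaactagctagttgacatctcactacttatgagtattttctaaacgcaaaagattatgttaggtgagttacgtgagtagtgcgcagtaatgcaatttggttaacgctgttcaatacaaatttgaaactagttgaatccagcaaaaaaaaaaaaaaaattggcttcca
S8H, chr3:4104213-4104462, + strand: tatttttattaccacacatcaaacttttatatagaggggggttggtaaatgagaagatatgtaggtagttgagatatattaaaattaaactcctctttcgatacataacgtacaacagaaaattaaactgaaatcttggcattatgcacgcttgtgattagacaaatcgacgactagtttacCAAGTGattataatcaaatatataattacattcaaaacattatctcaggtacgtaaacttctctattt
CYP82C4, chr4:15451738-15451987, + strand: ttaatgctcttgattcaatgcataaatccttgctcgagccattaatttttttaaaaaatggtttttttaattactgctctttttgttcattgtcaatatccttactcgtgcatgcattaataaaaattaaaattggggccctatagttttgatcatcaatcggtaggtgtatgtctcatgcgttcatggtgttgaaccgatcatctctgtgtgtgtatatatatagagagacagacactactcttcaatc

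Only the S8H stretch holds a CANNTG, which begins 68 bases upstream of the start. Over all 10 genes, 4 held at least 1 CANNTG in this window (F6'H1, S8H, ABCG37 and MYB10), compared with 55.3% of the 27443 windows of the same length at protein-coding genes. The palindrome CACGTG, itself a CANNTG, was in none of the 10 windows and in 6.49% of all of them. Both motifs read the same on either strand in the search. IRT2 and IRT1 are neighbours on chromosome 4, with 2505 bases and no gene between them.

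The deposited tables hold 1 mean normalized count per gene and line, that is, read counts divided by the size factor of each library and averaged over 3 libraries. Because those means are printed to 10 or 15 digits, most could be solved for the whole-number counts behind them. The libraries of a line are numbered by ascending size factor, since nothing ties them to a replicate number. A single solution was found for 99.7% of the means tried in the RNAi line, 19677 of 19679 in amiNAA10, all 19725 in the libraries labelled naa20, and 99.96% in Col-0. In the NAT lines (amiNAA10 and naa20) only means up to 1000 could be solved, so the most abundant genes have the authors' mean alone there. AHA2 had 2 solutions in the RNAi line and is given by its mean there too. The means of a line summed to between 20338996 and 21639733 normalized counts.

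The targeted genes were read before the members. AtDOA10A averaged 841 ± 88.3 normalized counts in the RNAi line and 2272 ± 114 in Col-0 (SD, n = 3 each), a log2 fold change of -1.44 ± 0.08 (SE, limma, adjusted p = 8.13e-06). AtDOA10B, the target of the construct, was higher in the RNAi line, with 511 ± 14.5 against 282 ± 15.2 in Col-0 (0.86 ± 0.08, limma adjusted p = 5.14e-04), and reads of the construct itself were not separated from those of the gene. The study reports the opposite by RT-qPCR, a reduced AtDOA10B transcript in this line, with primers on either side of the RNAi target. Its text sets that level against Col-0, and its figure legend against the untransformed Atdoa10a mutant, whereas the values here are against Col-0. The RNAi line therefore means the libraries so labelled. NAA10 had 123 ± 13.6 normalized counts in amiNAA10 and 885 ± 37.4 in Col-0. NAA20 had 680 ± 10.3 in the libraries labelled naa20 and 263 ± 31.2 in Col-0, which goes against a loss of that transcript, so these libraries are named by their label throughout. A mutation that leaves a transcript in place cannot be checked by its level.

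Levels between genes were compared per kilobase of annotated exon. In Col-0 the order was AHA2 (6640 normalized counts per kb), IRT1 (4227), CYP82C4 (2438), ABCG37 (1127), FRO2 (1009), F6'H1 (991), MYB10 (105), S8H (92.5), IRT2 (74.4) and MYB72 (0.29). The Col-0 libraries of ABCG37, FRO2 and F6'H1 overlap on this scale, and so do those of S8H with MYB10 and with IRT2. The first 6 and the last gene held their places in amiNAA10 and in the RNAi line. In the libraries labelled naa20, ABCG37 stood above CYP82C4, F6'H1 above FRO2, and IRT2 (14.99 per kb) and S8H (14.97 per kb) were above MYB72 alone. Windows of 50 bases from the exons of these genes were unique in the genome for 8 of the 10. For CYP82C4, 8.98% of the windows also occur in its cluster neighbours CYP82C3 or CYP82C2, and for AHA2 0.132% occur in AHA1, so that these levels could hold some reads of the relatives or miss some of their own.

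**Figure D1:**
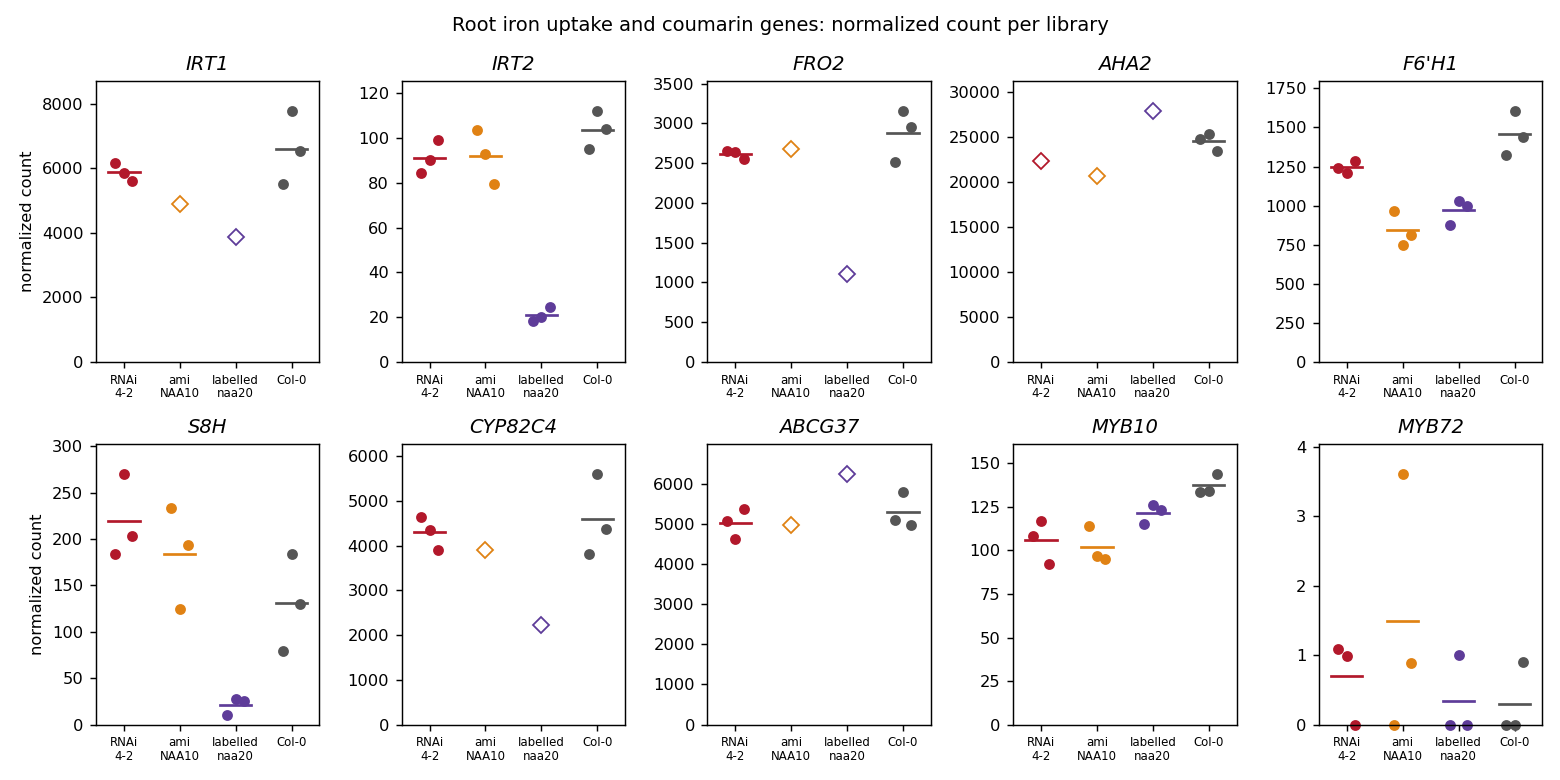
Normalized count (vertical axis, from 0, each gene on its own scale) of the 10 genes in the RNAi line, amiNAA10, the libraries labelled naa20 and Col-0. Filled points are single libraries, bars are the mean of 3, and open diamonds are means whose libraries could not be solved. IRT2 and S8H have all 3 libraries labelled naa20 under 30, below every Col-0 library, and the MYB72 scale ends near 4.

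The RNAi line was compared with Col-0 to find transcripts that differ between them. AHA2 (not solved) and MYB72 (too few reads) could not be tested. None of the other 8 members passed a limma fit over 20173 genes at an adjusted p under 0.05, and 3 had an unadjusted p under 0.05 (S8H, F6'H1 and MYB10), beside 16.8% of all genes. In that fit 2.37% of all genes were called. By the ratio of means, none of the 9 members with a mean of at least 10 in either line passed 2-fold, beside 1.16% of all genes. The members' log2 ratios had a median of -0.13, where that of all genes is at 0 by the centring.

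IRT1 had 6164, 5856 and 5610 normalized counts in the RNAi line, against 5504, 7776 and 6552 in Col-0. The RNAi libraries lay inside the range of the Col-0 libraries, and the limma log2 fold change was -0.16 (95% interval -0.39 to 0.07, adjusted p = 0.491). IRT2, a close relative of IRT1 in the root epidermis, had 84.2, 90.1 and 99.2 in the RNAi line and 94.9, 112 and 104 in Col-0, which overlap (-0.18, interval -0.49 to 0.12, adjusted p = 0.554 by limma). FRO2, the ferric chelate reductase gene, had 2660, 2647 and 2548 in the RNAi line and 2513, 3155 and 2957 in Col-0. Its RNAi libraries were close together and within the Col-0 range (-0.13, interval -0.30 to 0.05, limma adjusted p = 0.454). AHA2, the proton pump gene, had a mean of 22378 in the RNAi line, against 24797, 25342 and 23521 in the Col-0 libraries. Its log2 ratio of means was -0.13, with no test.

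Of the coumarin genes, S8H was the one member above Col-0 in the RNAi line. It had 183.8, 270 and 203 normalized counts in the RNAi line and 79.6, 183.6 and 130 in Col-0. The lowest RNAi library and the highest Col-0 library differed by less than 1 count. The limma log2 fold change was 0.80 (interval 0.25 to 1.35, adjusted p = 0.131), and the exact 2-sided permutation test of 3 against 3 libraries gave p = 0.10, the smallest it can give. Without Col-0 library 2, which holds the value of 183.6, it passed limma (1.08, adjusted p = 0.00988). F6'H1, which starts the coumarin pathway, had 1238, 1209 and 1286 in the RNAi line and 1326, 1604 and 1438 in Col-0. All its RNAi libraries lay below all Col-0 libraries, and the change did not pass limma (-0.22, interval -0.39 to -0.06, adjusted p = 0.154). CYP82C4 had 4652, 4344 and 3908 in the RNAi line against 3804, 5608 and 4375 in Col-0 (-0.08, interval -0.34 to 0.18). ABCG37, the exporter gene, had 5066, 4610 and 5375 in the RNAi line against 5103, 5782 and 4959 in Col-0 (-0.07, interval -0.24 to 0.10). The RNAi and Col-0 libraries overlapped for both genes.

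MYB10 had 108, 117 and 92.4 normalized counts in the RNAi line and 134, 134 and 144 in Col-0. These groups do not overlap either, but the log2 fold change of -0.38 (interval -0.67 to -0.09) did not pass limma (adjusted p = 0.171). MYB72, with MYB10 a transcription factor gene under FIT, was at the limit of detection in every line, with 2 reads over the 3 libraries of the RNAi line, 5 in amiNAA10, 1 in the libraries labelled naa20 and 1 in Col-0. No fold can be drawn from those reads: the log2 ratio of amiNAA10 over Col-0 is 2.102 with a counting interval of -1.55 to 7.41. The RNAi and Col-0 libraries did not overlap for 3 of the 8 solved members with a mean of at least 10, beside 22.2% of all genes.

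amiNAA10 and Col-0 stand in tables that were normalized separately, so their ratios were centred on the median over all genes and carry no test. That median was 0.21 on the log2 scale in amiNAA10. Of the 9 members with a mean of at least 10, none passed 2-fold in amiNAA10, where 4.94% of all genes did (391 higher and 620 lower, or 702 and 356 with no centring). Ratios of 8 were below 0 and 1 was above, with a median of -0.45. The lowest was that of F6'H1, with 966, 745 and 814 normalized counts in amiNAA10 and 1326, 1604 and 1438 in Col-0. Its log2 ratio of -0.9985 ended just inside 2-fold, with a counting interval of -1.07 to -0.93, and passed it without Col-0 library 1 or without Col-0 library 3 (-1.06 at the lowest). IRT1 had a mean of 4881 in amiNAA10 and 6611 in Col-0 (log2 ratio -0.65), and MYB10 had 114, 96.6 and 95.2 in amiNAA10 and 134, 134 and 144 in Col-0 (-0.64). AHA2, CYP82C4, IRT2, FRO2 and ABCG37 had log2 ratios between -0.46 and -0.29. S8H, with 233, 125 and 194 in amiNAA10 and 79.6, 184 and 130 in Col-0, had a log2 ratio of 0.28 and overlapping libraries. The 9 directions were the same with no centring and with scaling to equal sums.

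The largest differences of the members were in the libraries labelled naa20. Of the 9 members, 4 were more than 2-fold below Col-0 and none was more than 2-fold above, beside 3.2% of all genes lower and 2.22% higher. These values also cross separately normalized tables, were centred on a median of 0.10, and have no test. S8H had 10.11, 28.1 and 25.4 normalized counts in the libraries labelled naa20, against 79.6, 184 and 130 in Col-0, or 65 reads against 403 in all. Its log2 ratio of -2.73 (counting interval -3.12 to -2.33) is a level 6.62-fold higher in Col-0, and the highest library labelled naa20 was below the lowest Col-0 library. IRT2 had 18.2, 20.1 and 24.5 in the libraries labelled naa20 and 94.9, 112 and 104 in Col-0. Its groups lay far apart compared with their spread, with a log2 ratio of -2.41 (-2.82 to -2.01).

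FRO2 averaged 1107 in the libraries labelled naa20 and 2875 ± 329 in Col-0 (SD, n = 3), a log2 ratio of -1.48 (-1.53 to -1.42). CYP82C4 averaged 2219 in the libraries labelled naa20 and 4596 ± 922 in Col-0, a log2 ratio of -1.15 that became -0.98 without Col-0 library 2. IRT1, the main transporter, averaged 3859 in the libraries labelled naa20 and 6611 ± 1137 in Col-0. At a log2 ratio of -0.88, and between -0.9956 and -0.7452 when Col-0 libraries were left out in turn, it stayed inside 2-fold in each case. F6'H1 had 877, 1030 and 1000 (999.9) in the libraries labelled naa20 and 1326, 1604 and 1438 in Col-0, which do not overlap (-0.69). MYB10 had 115, 126 and 123 in the libraries labelled naa20 and 134, 134 and 144 in Col-0, also apart (-0.28). ABCG37 and AHA2 were the members above Col-0: the means were 6242 and 27918 in the libraries labelled naa20, against 5281 and 24553 in Col-0, with log2 ratios of 0.14 and 0.09. The members inside and outside 2-fold thus cut across the functional groups, with FRO2 and IRT2 of uptake and S8H and CYP82C4 of coumarin synthesis outside it.

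**Figure D2:**
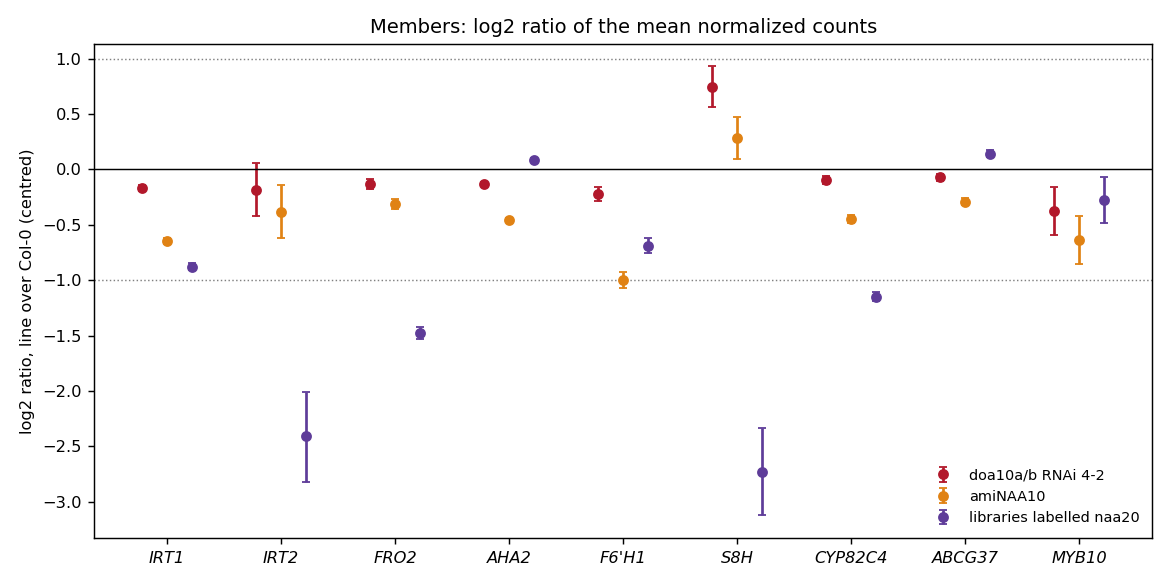
Log2 ratio of mean normalized counts over Col-0 (vertical axis, centred on the median of all genes) for 9 members in the 3 comparisons, without MYB72. Bars are 95% counting intervals, which leave out the spread between libraries, and dotted lines mark 2-fold. S8H (-2.73), IRT2 (-2.41), FRO2 (-1.48) and CYP82C4 (-1.15) lie below the lower line in the libraries labelled naa20, and S8H reaches 0.75 in the RNAi line.

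After centring, all 3 libraries of amiNAA10 were below all 3 of Col-0 for 3 of the 4 solved members with a mean of at least 10, beside 24.1% of all genes. With the counts as deposited, IRT2 overlapped there, with 104, 93.0 and 79.3 in amiNAA10, so the count was 2. It was 4 of 4 in the libraries labelled naa20 on either scale (IRT2, F6'H1, S8H and MYB10), beside 22.2% of all genes. Members with high means are not in these counts.

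Some genes of the iron response outside the 10 were higher in the RNAi line and in the libraries labelled naa20, and FIT was lower. The list of other iron pathway genes held 33 genes, chosen with earlier results of these data known, and all had a mean of at least 10. In the RNAi line 13 rose and 2 fell (FIT and NRAMP1) by limma, beside 2.37% of all genes called. There were 2 calls in all without RNAi library 2, 5 without Col-0 library 3 and 0 without a mean-variance trend. In the same line, by the ratio of means 10 were more than 2-fold above Col-0 and none below. Of all genes, 1.16% passed 2-fold in either direction there. In amiNAA10 none passed 2-fold in either direction, where 4.94% of all genes did. In the libraries labelled naa20 10 were more than 2-fold above and 1, FIT, below, beside 2.22% of all genes above and 3.2% below. With no centring 14 were above and none below, which leaves FIT at -0.96. The median log2 ratios were 0.19 in the RNAi line, -0.09 in amiNAA10 and 0.68 in the libraries labelled naa20, where that of all genes is at 0 by the centring.

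FIT, the activator of IRT1 and FRO2, had 307, 391 and 402 normalized counts in the RNAi line, 372, 289 and 370 in amiNAA10, 281, 231 and 270 in the libraries labelled naa20, and 522, 494 and 509 in Col-0. Every mutant library was thus below every Col-0 library. The log2 fold change in the RNAi line was -0.48 ± 0.10 (SE, limma, adjusted p = 0.0342), and the log2 ratios were -0.77 in amiNAA10 and -1.06 in the libraries labelled naa20. The limma call was lost on leaving out any library but Col-0 library 2, with adjusted p between 0.0505 and 0.120.

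The 4 Ib bHLH genes and the 3 IMA genes all rose in the RNAi line, where each of their libraries was above every Col-0 library. Libraries of the RNAi line and Col-0 did not overlap, in either direction, for 22.2% of all genes. IMA2 had 711, 882 and 551 normalized counts in the RNAi line and 107, 252 and 144 in Col-0 (log2 fold change 2.15 ± 0.26, SE, limma adjusted p = 0.0023). bHLH100 had 1243, 1116 and 852 in the RNAi line and 128, 533 and 233 in Col-0 (2.07 ± 0.38, limma adjusted p = 0.0169). For the 7 genes the fold changes lay between 1.45 and 2.15 and the adjusted p between 0.0023 and 0.0169. Without RNAi library 2 only 1 of the 7 passed, and without Col-0 library 3 4 did, with log2 fold changes of at least 1.32 in both cases. Without a mean-variance trend none of the 7 passed (limma adjusted p between 0.0951 and 0.163). The log2 ratios of the 7 genes were between 1.47 and 2.76 in the libraries labelled naa20. IMA1, for example, had 682, 923 and 861 normalized counts in the libraries labelled naa20 and 68.4, 266 and 103 in Col-0. In amiNAA10 the log2 ratios of means were between -0.23 and 0.82 (bHLH38 turned above 0 with another scaling), and the libraries of all 7 overlapped those of Col-0.

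The E3 ligase gene BTS, whose product degrades iron regulators, had 10640, 11020 and 9286 normalized counts in the RNAi line and 3319, 6597 and 4340 in Col-0 (log2 fold change 1.17 ± 0.19, SE, limma adjusted p = 0.0091). PYE, a bHLH factor of the iron response, also rose (1.054 ± 0.17, limma adjusted p = 0.00977). In the libraries labelled naa20 their log2 ratios of 0.996 and 0.992 ended just inside 2-fold. BTSL1 and BTSL2, the root relatives of BTS, had log2 ratios of -0.06 and -0.09 in the RNAi line and -0.20 and -0.08 in the libraries labelled naa20, the last of which turned above 0 with no centring.

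**Figure D3:**
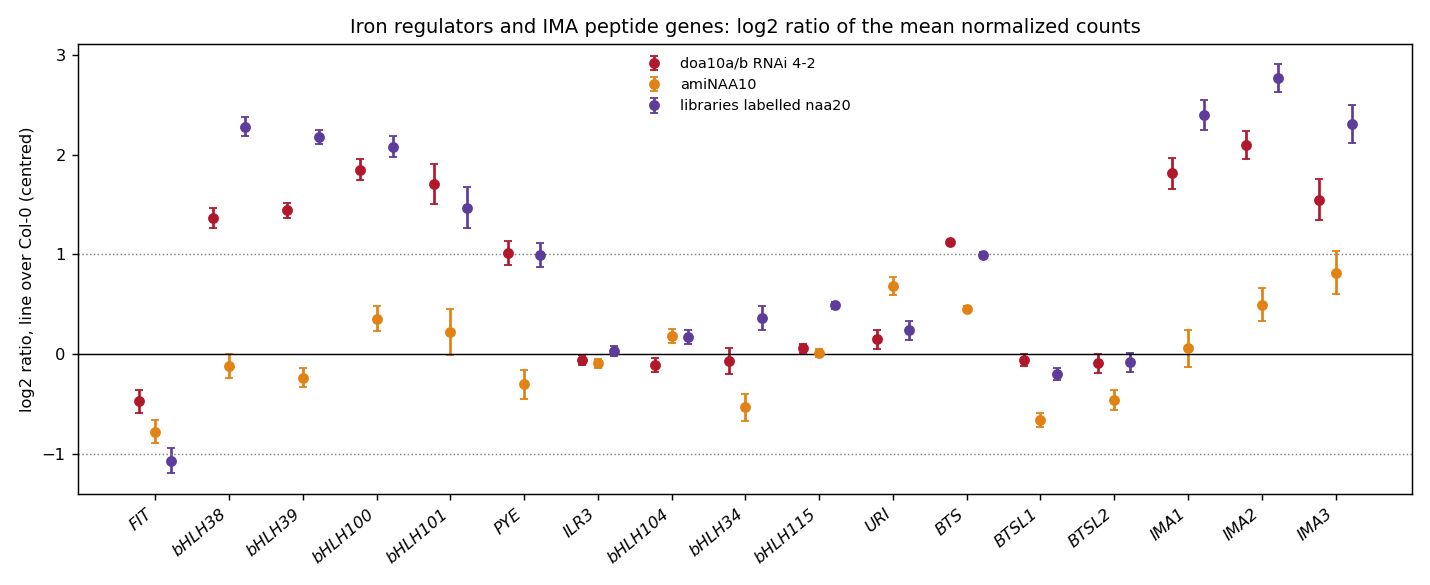
Log2 ratio of mean normalized counts over Col-0 (vertical axis, centred) for 14 iron regulator genes and 3 IMA genes in the 3 comparisons. Bars are 95% counting intervals and dotted lines mark 2-fold. The Ib bHLH and IMA genes lie between 1.37 and 2.76 in the RNAi line and the libraries labelled naa20, while FIT lies between -1.06 and -0.47 in the 3 comparisons.

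Among 13 genes of iron transport and chelation, 4 rose (NAS4, FRO3, OPT3 and ZIF1) and NRAMP1, a manganese and iron transporter gene, fell (-0.40 ± 0.09, SE, adjusted p = 0.0436) in the RNAi line by limma. ZIF1, which loads nicotianamine into the vacuole, rose by 1.08 ± 0.15 (log2, SE, limma adjusted p = 0.00518) and was the one member of that list past 2-fold. In the libraries labelled naa20, the nicotianamine synthase gene NAS2 and the citrate exporter gene FRD3 were past 2-fold, at 1.176 and 1.165. FRD3 had 543, 529 and 507 normalized counts in the libraries labelled naa20 and 248, 183 and 226 in Col-0. Of the 3 coumarin partners, COSY, a coumarin synthase gene, had 68.7, 84.2 and 67.7 in the libraries labelled naa20 and 34.7, 27.2 and 30.8 in Col-0, a log2 ratio of 1.15 in the direction opposite to S8H. None of the 3 passed limma in the RNAi line.

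The iron genes whose 3 log2 ratios were nearest to those of IRT1 were FIT (Euclidean distance 0.38), HMA3 (0.41) and MTPA2 (0.53), out of 33 candidates. MTPA2 encodes a metal transporter of the vacuole. HMA3 had ratios of -0.17 in the RNAi line, -0.57 in amiNAA10 and -0.47 in the libraries labelled naa20, and MTPA2 had -0.10, -0.91 and -0.42 in the same order. IRT1 itself had -0.17, -0.65 and -0.88.

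Close relatives were read beside the members. Of 20 relatives, 15 had a mean of at least 10 in the RNAi line or Col-0. Among these 1 fell by limma and none rose, beside 2.37% of all genes called. That gene was CYP82C2, a neighbour of CYP82C4 that acts in defence metabolism. It had 20.8, 7.93 and 8.75 normalized counts in the RNAi line, 28.8, 15.3 and 19.4 in amiNAA10, 14.2, 14.0 and 14.1 in the libraries labelled naa20 and 72.5, 119 and 173 in Col-0. All 3 differences rest on the same Col-0 libraries, and the limma log2 fold change in the RNAi line was -3.22 ± 0.38 (SE, adjusted p = 0.00221, or 0.07145 without a mean-variance trend). FRO6, a reductase gene of leaves, had a mean of 1760 in the libraries labelled naa20 and of 3734 in Col-0 (log2 ratio -1.19). FRO7, of chloroplasts, had a log2 ratio of -0.71 there. FRO5 was the relative past 2-fold above Col-0 in the NAT lines, with 15.3, 9.93 and 14.1 in amiNAA10, 12.1, 17.0 and 12.2 in the libraries labelled naa20 and 2.04, 4.04 and 3.62 in Col-0 (1.81 and 1.99). AHA1, the other major proton pump gene, had log2 ratios of -0.21 in the RNAi line (not past limma, adjusted p = 0.0969), 0.06 in amiNAA10 and 0.48 in the libraries labelled naa20. F6'H2 had means of 17.7 in the RNAi line, 23.9 in amiNAA10, 15.1 in the libraries labelled naa20 and 26.8 in Col-0, and its libraries overlapped those of Col-0 in all 3 comparisons.

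IRT1 and FRO2 act in the root epidermis, so markers of cell types were summed beside them. The 10 root hair markers, none of them at 0, summed to between 1180 and 1510 normalized counts per library in the libraries labelled naa20 and to between 1788 and 2545 in Col-0. Their log2 ratios had a median of -0.86 in the libraries labelled naa20, with 4 past 2-fold below Col-0, beside 3.2% of all genes. These were RSL4 (-1.60), ADF8 (-1.14), PRP3 (-1.06) and LRX1 (-1.02). With no centring PRP3 (-0.96) and LRX1 (-0.92) ended inside 2-fold. In each comparison 9 of the 10 markers were below 0 and 1 was above. The marker above was RHD6 in the RNAi line (0.09) and the libraries labelled naa20 (0.30), and EXPA7 in amiNAA10 (0.33). The sums were 1748 to 1916 in the RNAi line and 2043 to 2562 in amiNAA10. All these sums are of counts as deposited, while the log2 ratios are centred. The mean sum in amiNAA10 was 2226 as deposited and 1927 after centring, against 2153 in Col-0. Median log2 ratios were -0.20 in the RNAi line and -0.25 in amiNAA10, although 4 of the 10 markers turned above 0 there with another scaling. None of the 10 root hair markers passed limma in the RNAi line. As deposited, the 6 endodermis and stele markers summed to 2105 to 2622 in the RNAi line and 2422 to 2992 in amiNAA10. They summed to a mean of 2289 in the libraries labelled naa20 and to 2453 to 3064 in Col-0. Their mean sum in amiNAA10 was 2697 as deposited and 2335 after centring, against 2660 in Col-0. Their log2 ratios had medians of -0.15 in the RNAi line, -0.02 in amiNAA10 and -0.53 in the libraries labelled naa20. Of these markers, the 5 tested did not pass limma in the RNAi line. The 12 green tissue markers, none of them tested with limma, had medians of 0.01 in the RNAi line, -0.69 in amiNAA10 and -0.34 in the libraries labelled naa20. RBCS2B (-1.54) and LHCB2.1 (-1.12) were past 2-fold below Col-0 in amiNAA10, where 4.94% of all genes passed 2-fold in either direction. With no centring LHCB2.1 (-0.91) ended inside 2-fold. In whole seedlings, fewer root cells and less RNA per cell cannot be told apart. The part of these markers in the members' values was not tested.

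**Figure D4:**
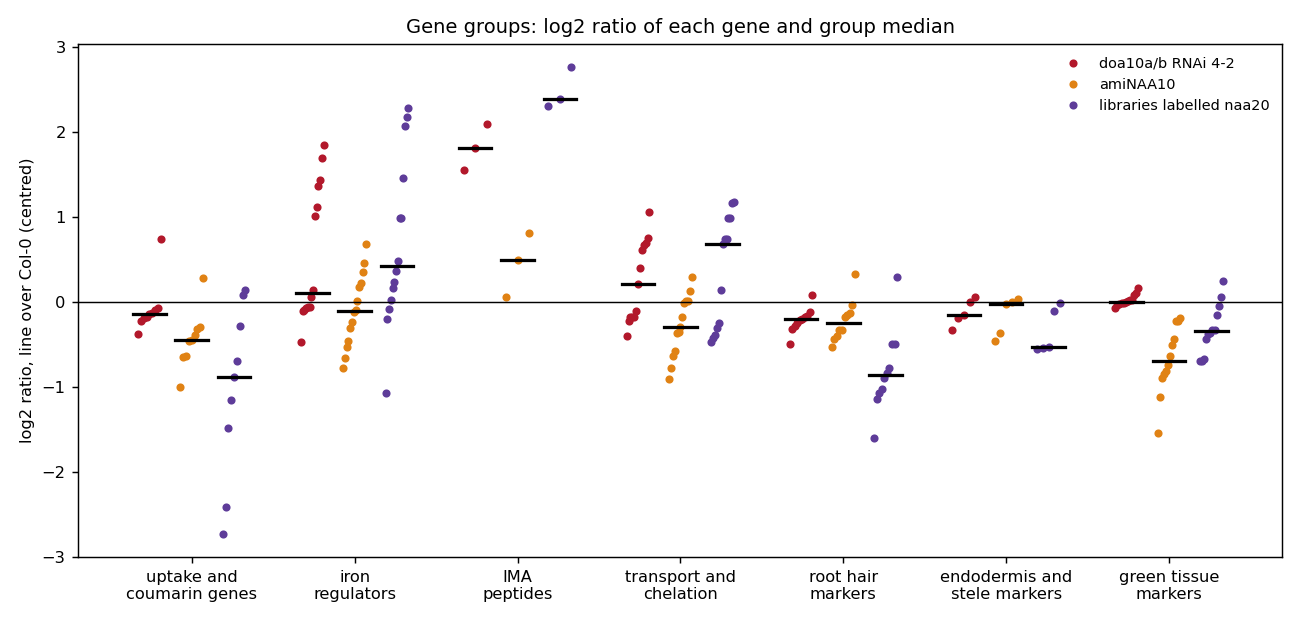
Log2 ratio of mean normalized counts over Col-0 (vertical axis, centred) of each gene with a mean of at least 10, by group and comparison. Points are genes and black bars are group medians. In the libraries labelled naa20 the medians of the uptake and coumarin genes (-0.88) and root hair markers (-0.86) lie below 0 and that of the IMA genes (2.39) above it.

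Single libraries stood apart in these genes. Col-0 library 2 was the highest of the 3 Col-0 libraries for 8 of the 9 members with a mean of at least 10, for all 7 Ib bHLH and IMA genes and for all 10 root hair markers, beside 37.3% of all genes. In amiNAA10, library 1 was the highest for 4 of 4 solved members and for all 7 Ib bHLH and IMA genes, beside 32.9% of all genes. The root hair markers differed there: library 1 was the highest for 1 of 10 and library 2 for 7 of 10, beside 35.6% of all genes for library 2. Of the libraries labelled naa20, library 2 was the highest for 3 of 4 solved members, 3 of 3 solved Ib bHLH and IMA genes and 8 of 10 root hair markers, beside 34.8% of all genes. bHLH100 had 533 normalized counts in Col-0 library 2, against 128 and 233 in the other Col-0 libraries. The part of these libraries in the members' values was not tested beyond leaving out each Col-0 library, and leaving out Col-0 library 2 gave 1 member past 2-fold in the RNAi line (S8H, 1.07), none in amiNAA10 and 3 in the libraries labelled naa20.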

How the data were processed

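Poly(A) RNA-seq libraries of 12 seedling pools (3 per line) were grouped by genotype label. Per the labels, the submitters list TopHat2 2.0.12, Bowtie2 2.2.3, DESeq 1.18.0, HTSeq 0.6.1 and the TAIR10 build with no roles, while the methods of the study name HISAT2, RPKM values, DESeq2 and edgeR, so the aligner is not settled; no strand-specific kit is described. The values used are signal: means, deposited by the authors, of gene counts divided by library size factors. The tables also hold the authors' log2 fold changes, p-values and calls, and 2 columns of Col-0 from another series, none of which was used.

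Means were solved for whole-number counts per library with numba 0.67.0, every split being searched up to a mean of 500 and libraries within 0.6 to 1.5 times the mean above it. Log2 ratios to Col-0 were taken without a pseudocount, centred on the median of genes with means of at least 10 in both lines, and read against 2-fold for genes with a mean of at least 10 in the higher line. Exact binomial 95% intervals cover counting error only. The RNAi line was tested with limma 3.58.1 (R) with a mean-variance trend on log2(normalized count + 1), with Benjamini-Hochberg adjustment over all genes; its fold changes are on that scale, which understates the change of low genes. The test was added after the data had been seen, as means alone had been expected. Both steps were tested on simulated data. Positions, exon lengths and upstream sequences are from RefSeq TAIR10.1, in which all 95 named identifiers were found.

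Members and 8 gene lists (81 genes) were chosen with earlier results of these data known. Named genes are the members, the targeted genes, FIT, the Ib bHLH and IMA genes and the relatives of members. To these were added up to 3 genes past 2-fold in each other list and the 3 iron genes nearest to IRT1. LRX1 (a root hair marker past 2-fold beyond those 3), RHD6, EXPA7, NRAMP1, NAS4, FRO3, OPT3, BTSL1 and BTSL2 were named after their values were seen.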

Additional observations from a re-analysis of the deposited data

Results flagged for a closer look

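S8H stood out because its log2 ratios had opposite signs in 2 lines. All 3 libraries of the RNAi line were above the Col-0 mean of 131 normalized counts, and all 3 libraries labelled naa20 were below it. The higher level in the RNAi line did not pass limma (adjusted p = 0.131). Its lowest library (183.8) was barely above the highest Col-0 library (183.6). The log2 ratios were 0.75 in the RNAi line and -2.73 in the libraries labelled naa20, a difference of 3.47. That difference was not tested, since the tables were normalized separately, and both ratios use the same Col-0 libraries, in which S8H itself ranged between 79.6 and 184.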

How the results depend on the processing

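No paired analysis was possible because neither the deposited columns nor the solved libraries carry a replicate number. At 1.5-fold the count of members past the threshold was 1 in the RNAi line and 3 in amiNAA10, other iron genes 10 in amiNAA10 and 18 in the libraries labelled naa20, and all genes 909, 3338 and 2957 in the RNAi line, amiNAA10 and the libraries labelled naa20. With no minimum mean, MYB72 brought the members to 1 in the RNAi line and 1 in amiNAA10, and all genes came to 2758, 3779 and 3781, against 79, 572 and 609 at a minimum of 50 and 235, 1011 and 1107 at a minimum of 10. With no centring, other iron genes past 2-fold in amiNAA10 were 2, and with scaling to equal sums 1. The median log2 ratio of the members in amiNAA10 was -0.24 with no centring and -0.33 with equal sums, and that in the libraries labelled naa20 was -0.78 with no centring. A pseudocount of 1 kept each count within 1.5 times.

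The alternatives below were chosen after seeing the data. On leaving out a Col-0 library, members past 2-fold were 0 to 1 in the RNAi line, 0 to 1 in amiNAA10 and 3 to 4 in the libraries labelled naa20. On leaving out any library, limma called 100 to 636 genes, with 100 lacking RNAi library 2, 229 lacking RNAi library 3 and 196 lacking Col-0 library 3, against 478 with all 6 libraries. It called 0 to 1 members and 2 to 16 other iron genes, the 2 lacking RNAi library 2 and 5 lacking Col-0 library 3. Without a mean-variance trend it called 46 genes and 0 other iron genes, with FIT at an adjusted p of 0.163; without adjustment 15% of all genes had p under 0.05. The cause was not tested. The 3 libraries per line and whole-seedling RNA limit what can be told of changes under 2-fold, and ratios of the NAT lines to Col-0 hold any difference between separately normalized tables.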
